A study of Homo sapiens with 9 samples.

Results

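The genes described here are 9 genes of HLA class I antigen presentation: the heavy chain genes HLA-B, HLA-C, HLA-E and HLA-F, the light chain gene B2M, the peptide transporter genes TAP1 and TAP2, the transporter-binding gene TAPBP (tapasin) and the regulator gene NLRC5. They were chosen by symbol, as the rows of the count table whose primary-assembly Ensembl identifier carries that symbol, and they are 9 of the 67071 identifiers in the table. Of the 9 genes, 5 passed the filter on low counts and were tested among 16855 genes. The cells were 22Rv1, an established human prostate carcinoma line that expresses the androgen receptor, and their genotype is labelled WT in every group. The control group received a GFP hairpin (shGFP, 3 libraries), and CHD9 was knocked down with the hairpin shCHD9_1 (hairpin 1, 3 libraries) or with shCHD9_2 (hairpin 2, 3 libraries). CHD9 is an ATP-dependent chromatin remodeller with chromodomains. All cells grew in RPMI medium with serum, and the sources used here do not give the time after hairpin delivery. The design text names 1 comparison, CHD9 knockdown against control knockdown. Nothing in the labels says that the 3 libraries of a group came from separate cultures, so p-values measure a spread between libraries that may be technical.

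Class I molecules display peptides from inside the cell to CD8 T cells. A polymorphic heavy chain pairs with the invariant light chain, beta-2 microglobulin, in the endoplasmic reticulum. There the TAP1 and TAP2 transporter brings in peptides that the proteasome has cut, and tapasin holds the empty molecule next to the transporter while a peptide is loaded. Transcription of these genes is driven by NF-kB and interferon response elements upstream of the start, and by an SXY module that an enhanceosome of RFX, CREB or ATF and NFY proteins binds and that NLRC5 co-activates. Loss of class I expression is a known route of immune escape in carcinomas, prostate carcinoma included.

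Libraries held 18911142 to 31968602 counts. The target CHD9 averaged 22.2 ± 1.42 CPM (counts scaled to a common library total, SD, n = 3) in shGFP, 15.4 ± 1.07 with hairpin 1 and 18.8 ± 0.465 with hairpin 2. Its log2 fold change was -0.52 with hairpin 1 (adjusted p = 7.2e-08) and -0.24 with hairpin 2 (adjusted p = 0.0060), and the second call was lost without shGFP replicate 3 (-0.20, adjusted p = 0.054). Of the other cell types checked, the leukocyte genes CD3E and MS4A1 and the endothelial gene CDH5 were at 0 in all 9 libraries. The leukocyte genes CD4, CD8A and CD14 held counts in every library, CD8A at 2.34 to 4.36 CPM. The 9 leukocyte markers, mostly CD8A, summed to 3.56 to 4 CPM in shGFP, 4.21 to 5.50 with hairpin 1 and 3.21 to 3.93 with hairpin 2. Of 3 leukocyte markers tested, none passed against shGFP. Between the hairpins 1 was higher with hairpin 1, beside 15.6% of all genes. The 3 endothelial markers summed to 0.0308 to 0.268 CPM. The 4 fibroblast markers, mostly COL1A1, summed to 4.97 to 5.32, 7.04 to 7.76 and 6.85 to 7.83 CPM. The 9 prostate luminal markers, none at 0, summed to 1917 to 1941 CPM in shGFP, 2205 to 2225 with hairpin 1 and 2117 to 2140 with hairpin 2. The fibroblast and luminal sums thus differed between shGFP and both knockdown groups. The leukocyte sum was higher with hairpin 1 than in shGFP or with hairpin 2. The part of any of these sums in the results on class I genes was not tested.

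A limit of the table touches 7 of the 9 genes, which lie in the major histocompatibility complex on chromosome 6 (GENCODE 29 coordinates, GRCh38). Between HLA-F and TAPBP, over 3592 kb, 103 of 149 protein-coding genes (69.1%) were at 0 in all 9 libraries. The share was 23.1% on chromosome 6 before HLA-F (52 of 225), 15.7% after TAPBP (105 of 667) and 17.3% over the protein-coding genes elsewhere (3421 of 19766). The genes of that stretch listed at 0 include RPS18, which encodes a protein of the small ribosomal subunit, and the tubulin gene TUBB. Of 86 ribosomal protein genes in the table, 4 were at 0, against a median of 915 CPM. A value of 0 or near 0 in this stretch is therefore not read as a lack of expression for any class I gene. How the authors' counting treated reads with several matches, and whether alternate sequences of the region were in the index, is unknown from the sources used here.

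**Figure D1:**
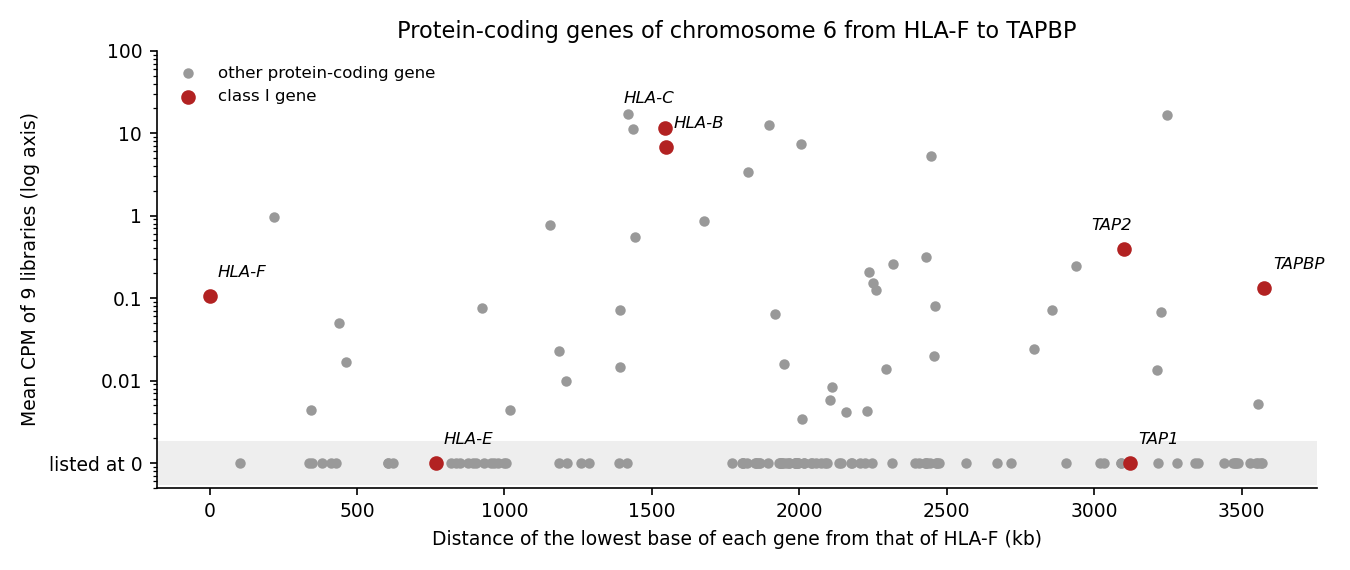
Mean CPM over 9 libraries (vertical log axis) of each protein-coding gene between HLA-F and TAPBP on chromosome 6, by the distance of its lowest base from that of HLA-F in kb. Grey points are other genes, red points are class I genes, and the shaded band holds the 103 genes listed at 0, HLA-E and TAP1 among them.

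The stretch of upstream sequence is shown for the 3 genes that changed, because the class I promoter carries the elements through which these genes are usually controlled together. RefSeq promoter windows (GRCh38.p14) matched 7 of the 9 genes (not HLA-E or NLRC5), and the 250 bases before the start are given 5′ to 3′ on the strand of the gene. HLA-B is at chr6:31357180-31357429 (minus strand), HLA-C at chr6:31272093-31272342 (minus) and B2M at chr15:44711267-44711516 (plus). Capitals mark matches on either strand to GGGATTCCC (the core of the NF-kB site of class I enhancers), AANNGAAA (the core of interferon response elements), TGACG (the core of the cyclic AMP response element) and CCAAT (the NFY box). Adjoining or overlapping matches form 1 run of capitals.
HLA-B: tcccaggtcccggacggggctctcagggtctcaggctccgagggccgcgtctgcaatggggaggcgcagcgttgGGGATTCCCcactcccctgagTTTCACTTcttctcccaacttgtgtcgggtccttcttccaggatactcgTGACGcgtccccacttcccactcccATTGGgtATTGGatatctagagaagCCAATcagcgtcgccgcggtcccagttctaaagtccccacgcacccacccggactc
HLA-C: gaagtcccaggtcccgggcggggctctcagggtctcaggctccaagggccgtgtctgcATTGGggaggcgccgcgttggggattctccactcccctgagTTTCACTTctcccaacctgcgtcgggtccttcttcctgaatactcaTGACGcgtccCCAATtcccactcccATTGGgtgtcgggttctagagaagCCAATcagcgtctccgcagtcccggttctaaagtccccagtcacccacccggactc
B2M: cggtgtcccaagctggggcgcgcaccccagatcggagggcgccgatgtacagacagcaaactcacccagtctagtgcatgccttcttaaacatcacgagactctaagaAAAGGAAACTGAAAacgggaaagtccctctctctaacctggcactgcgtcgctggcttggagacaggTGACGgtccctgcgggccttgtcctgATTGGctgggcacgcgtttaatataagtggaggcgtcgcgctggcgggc

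HLA-B and HLA-C were identical at 226 of 246 aligned bases (91.9%) of these windows. GGGATTCCC was found in HLA-B and in none of the other 6 class I genes with a window, and in 127 of 34943 windows of all genes (0.363%). AANNGAAA was found in all 7, and in 20.3% of all windows. HLA-B and HLA-C hold 1 such match each and B2M holds 2, which overlap. TGACG (21.2% of all windows) and CCAAT (32% of all windows) occurred in HLA-B, HLA-C and B2M alike. A match describes letters and is neither a bound site nor a cause of a change.

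The classical heavy chain genes HLA-B and HLA-C fell with both CHD9 hairpins, to 56.1% and 64.9% of the control level in the mean of both. The light chain gene B2M rose over the same libraries, by 1.18-fold. TAP2 and NLRC5 did not pass the test. In the mean of both hairpins against shGFP, 1 of the 5 tested class I genes was thus higher, 2 lower and 2 not passed, where 45.5% of all genes tested passed (22.3% higher, 23.2% lower). A share of 3 in 5 is close to that background, so the count says little about the group, and the values of each gene are given below. The median log2 fold change of the 5 genes was -0.11, beside 0.00 over all genes. In bulk RNA, fewer expressing cells and less RNA per cell cannot be told apart.

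HLA-B (ENSG00000234745.11, minus strand, annotated at bases 31269491 to 31357188 of chromosome 6) encodes a classical heavy chain. It measured 11.2, 8.78 and 9.02 CPM in the 3 shGFP libraries, from 213, 199 and 236 counts. With hairpin 1 it measured 5.06, 4.36 and 4.21 CPM, from 102, 98 and 113 counts, and with hairpin 2 it measured 5.67, 7.06 and 6.46 CPM, from 143, 229 and 137 counts. Every hairpin 1 library was below every hairpin 2 library, and every hairpin 2 library was below every control. Group means were 9.67 ± 1.34, 4.54 ± 0.451 and 6.40 ± 0.698 CPM (SD, n = 3). The log2 fold change was -0.83 in the mean of both hairpins (SE 0.10, adjusted p = 3.6e-09), -1.09 with hairpin 1 (SE 0.12, adjusted p = 5.9e-10) and -0.58 with hairpin 2 (SE 0.12, adjusted p = 7.4e-05), by the quasi-likelihood test of edgeR with adjustment after Benjamini and Hochberg over all genes.

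HLA-C (ENSG00000204525.16, minus strand, bases 31268749 to 31272130 of chromosome 6) encodes the classical heavy chain that is also the main ligand of inhibitory receptors on natural killer cells. It measured 14.1, 15.6 and 14.99 CPM in shGFP, from 268, 354 and 392 counts. It measured 9.12, 7.56 and 8.73 CPM with hairpin 1 (184, 170 and 234 counts) and 12.1, 10.5 and 10.8 CPM with hairpin 2 (304, 339 and 230 counts). The 3 groups again did not overlap and stood in the same order as for HLA-B. Over all genes tested, groups did not overlap for 53.9% between hairpin 1 and shGFP and for 44.1% between hairpin 2 and shGFP. Means were 14.9 ± 0.762, 8.47 ± 0.813 and 11.1 ± 0.835 CPM (SD, n = 3). The log2 fold change was -0.62 in the mean of both hairpins (SE 0.08, adjusted p = 4.6e-09), -0.82 with hairpin 1 (SE 0.09, adjusted p = 4.8e-10) and -0.43 with hairpin 2 (SE 0.09, adjusted p = 1.1e-04).

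Both heavy chain genes are uncertain at the level of single reads. Of the distinct 50-base stretches of their GENCODE 29 transcripts, 2.72% of those of HLA-B and 5.38% of those of HLA-C occur in another gene as well, and of the 100-base stretches 0 and 0.126%. The annotated span of HLA-B reaches into HLA-C, and 17.8% of the exonic bases of HLA-B lie opposite exons on the other strand. The HLA alleles of 22Rv1 were not analysed here. HLA-B and HLA-C together hold 18.6% of all counts at protein-coding genes of the stretch from HLA-F to TAPBP. The 11 other tested genes of that stretch, picked out after their values were seen, had a median log2 fold change of -0.06 in the mean of both hairpins (range -0.78 to 0.05). None rose, 2 fell, among them CCHCR1 (-0.26, adjusted p = 0.00071), and 9 did not pass.

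**Figure D2:**
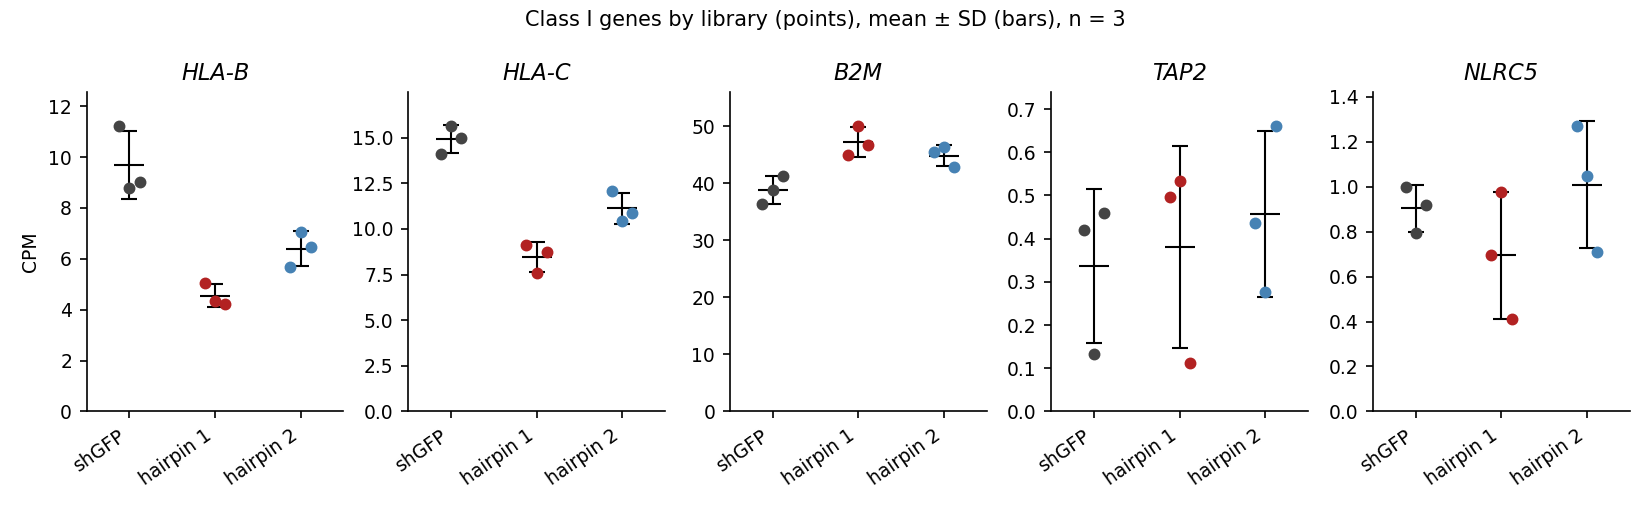
CPM (vertical axis, a separate scale from 0 for each gene) of the 5 tested class I genes in shGFP, hairpin 1 and hairpin 2. Points are libraries and bars are mean ± SD, n = 3: the 3 groups do not overlap for HLA-B and HLA-C, B2M lies higher in all 6 knockdown libraries, and TAP2 and NLRC5 overlap.

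B2M (ENSG00000166710.20, plus strand, bases 44711487 to 44718877 of chromosome 15) lies outside the major histocompatibility complex, and none of its 50-base stretches occurs in another gene. Its product is the light chain of all classical class I molecules and of several class I-like proteins. It measured 36.4, 38.7 and 41.3 CPM in shGFP (692, 878 and 1081 counts). It measured 45.0, 50.01 and 46.8 CPM with hairpin 1 (907, 1125 and 1254 counts) and 45.5, 46.3 and 42.8 CPM with hairpin 2 (1148, 1502 and 907 counts). All 6 knockdown libraries were above all 3 controls, a separation that 31.7% of all genes tested showed in either direction, while the 2 hairpin groups overlapped each other. Means were 38.8 ± 2.46, 47.2 ± 2.56 and 44.9 ± 1.86 CPM (SD, n = 3). The log2 fold change was 0.24 in the mean of both hairpins (SE 0.05, adjusted p = 2.2e-05), 0.28 with hairpin 1 (SE 0.05, adjusted p = 2.0e-05) and 0.21 with hairpin 2 (SE 0.05, adjusted p = 0.0014). A correction for GC content and length moved the value in the mean of both hairpins to 0.37 and that of hairpin 1 to 0.45.

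Per kilobase of exon, the control levels of B2M (6.39 ± 0.405 CPM per kb) and HLA-C (5.95 ± 0.304) differed by about 1 SD, and HLA-B stood lower (3.17 ± 0.438, SD, n = 3). With hairpin 1 the levels were 7.77 ± 0.421 for B2M, 3.38 ± 0.324 for HLA-C and 1.49 ± 0.148 for HLA-B. With hairpin 2 they were 7.38 ± 0.306, 4.44 ± 0.333 and 2.10 ± 0.229. The order of the 3 genes was the same in all 3 groups. The length used joins the exons of all annotated transcripts, 6079 bases for B2M (15 transcripts), 2507 for HLA-C (10) and 3051 for HLA-B (10). Levels of different genes therefore depend on that length and not on the transcripts in use. HLA-B and HLA-C also lie in the chromosome 6 stretch where many genes were at 0, so their level relative to B2M is uncertain. NLRC5 (0.0730 ± 0.00836 CPM per kb in shGFP), TAP2 (0.0528 ± 0.0279), TAPBP (0.0323 ± 0.0130) and HLA-F (0.0271 ± 0.00317) were far below, and HLA-E and TAP1 were at 0.

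Relative to the RNA of the light chain, that of both heavy chains was lower in every knockdown library than in any control. This separation was fixed in advance and is not a further result. Every knockdown library was already below every control for HLA-B and HLA-C and above every control for B2M. The ratios therefore add only the size of the difference from shGFP. The ratio of HLA-B to B2M CPM was 0.251 ± 0.0494 in shGFP (0.218 to 0.308 over 3 libraries), 0.0966 ± 0.0138 with hairpin 1 (0.0871 to 0.112) and 0.143 ± 0.0157 with hairpin 2 (0.125 to 0.152). The ratio of HLA-C to B2M ranged from 0.363 to 0.403 in shGFP, from 0.151 to 0.203 with hairpin 1 and from 0.226 to 0.265 with hairpin 2. Neither ratio overlapped between any of the groups. Between hairpin 1 and hairpin 2 B2M itself overlapped, but the separation of the ratios still followed from the CPM ranges of HLA-B, HLA-C and B2M. It is not a further result there either. The ratio of HLA-B to HLA-C, by contrast, overlapped between all groups, at 0.562 to 0.795, 0.483 to 0.576 and 0.470 to 0.676.

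Against shGFP, each hairpin called the same split of class I genes, 1 higher, 2 lower and 2 not passed. The background was 47.3% of genes called with hairpin 1 (23.9% higher, 23.4% lower) and 35.7% with hairpin 2 (17.2% higher, 18.5% lower). The medians of the 5 genes were -0.40 and 0.18, with all genes at 0.00 in each, and both hairpins share the shGFP libraries. Tested directly against each other, hairpin 1 was lower than hairpin 2 for 2 of the 5 genes, with 3 not passed, where 29.2% of all genes passed (15.6% higher, 13.6% lower). HLA-B differed by -0.51 on the log2 scale (SE 0.13, interval -0.77 to -0.25, adjusted p = 0.0020) and HLA-C by -0.39 (SE 0.10, interval -0.58 to -0.20, adjusted p = 0.0013). CHD9 itself differed in the same direction, by -0.28 (adjusted p = 0.0024), a call lost with the GC content and length correction and the replicate block together (-0.18, adjusted p = 0.055). Of all genes tested, 39.6% did not overlap between the 2 hairpin groups. B2M differed by 0.07 (interval -0.03 to 0.17, adjusted p = 0.32), and passed only in the fits with a GC content and length correction (0.16, adjusted p = 0.011, and 0.16, adjusted p = 0.0093, with the replicate block added).

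**Figure D3:**
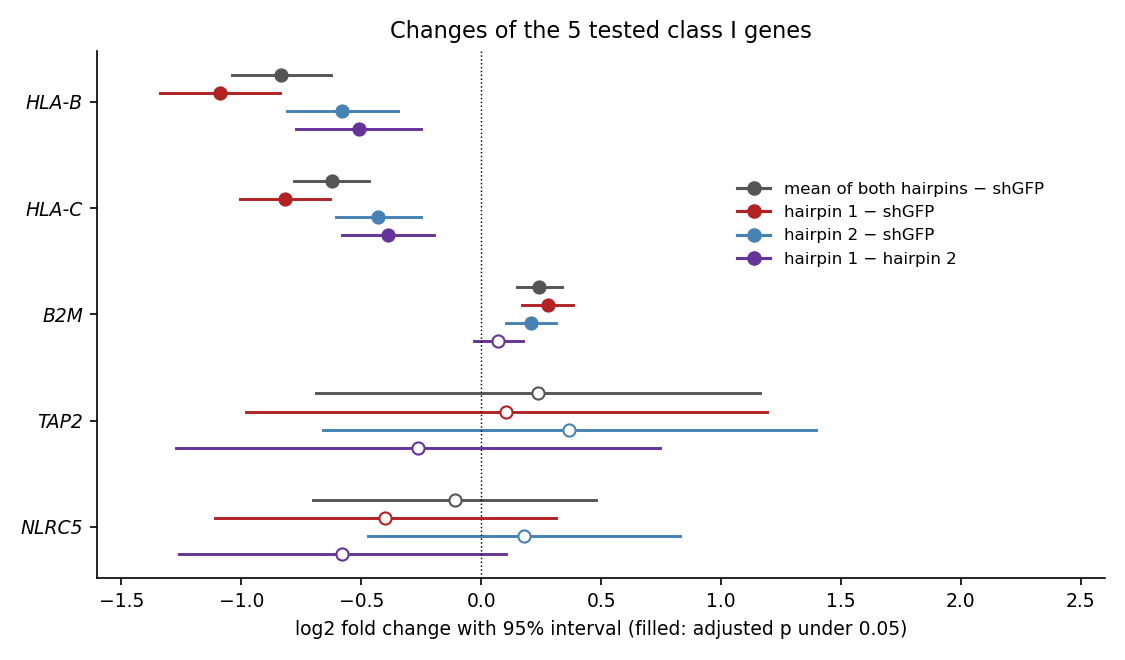
Log2 fold change (horizontal axis) with 95% interval of the 5 tested class I genes in each of 4 contrasts, filled where the adjusted p was under 0.05. HLA-B and HLA-C lie below 0 in all 4 contrasts, B2M above 0 against shGFP, and the intervals of TAP2 and NLRC5 span 0.

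The 2 subunits of the peptide transporter could not be followed. TAP1 (ENSG00000168394.11, minus strand, bases 32845209 to 32853978 of chromosome 6) was at 0 in all 9 libraries. TAP2 (ENSG00000204267.16, minus strand, bases 32821833 to 32838780) had 8, 3 and 12 counts in the controls, 10, 12 and 3 with hairpin 1 and 11, 9 and 14 with hairpin 2. These are 0.132 to 0.459, 0.112 to 0.533 and 0.278 to 0.660 CPM, and the groups overlapped. The log2 fold change of TAP2 in the mean of both hairpins was 0.24 with an interval from -0.69 to 1.16 (adjusted p = 0.71). That interval holds a fall as large as that of HLA-C (-0.62) and a rise as large as that of B2M. It therefore excludes neither. Of the exonic bases of TAP2, 32.3% are shared with another gene on the same strand, and 30.3% of its 100-base stretches occur in another gene.

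The counts of tapasin were also near the floor, which in this stretch is not read as a lack of expression. TAPBP (ENSG00000231925.12, minus strand, bases 33299694 to 33314387 of chromosome 6) had 4, 2 and 5 counts in the controls, 5, 0 and 0 with hairpin 1 and 1, 6 and 5 with hairpin 2, or 28 in all. Among the nonclassical heavy chains, HLA-F (ENSG00000204642.14, plus strand, bases 29722775 to 29738528) had 2, 3 and 3 counts, then 2, 2 and 7, then 1, 2 and 1, or 23 in all. HLA-E (ENSG00000204592.9, plus strand, bases 30489467 to 30494205), whose product presents leader peptides of other class I chains to natural killer cells, was at 0 in all 9 libraries. A count of 0 allows up to 0.0925 to 0.158 CPM per library (3 counts, counting error only). For genes of this stretch that is not a limit on expression. With no filter on low counts, 31606 genes were tested, and HLA-F (-0.38, adjusted p = 0.87) and TAPBP (-0.58, adjusted p = 0.71) did not pass in the mean of both hairpins.

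NLRC5 (ENSG00000140853.15, plus strand, bases 56989485 to 57083531 of chromosome 16), the class I co-activator, lies outside that stretch and shares no 50-base stretch with another gene. It had 19, 18 and 24 counts in the controls, 14, 22 and 11 with hairpin 1 and 32, 34 and 15 with hairpin 2. Its level was 0.904 ± 0.103 CPM in shGFP, 0.694 ± 0.284 with hairpin 1 and 1.01 ± 0.283 with hairpin 2 (SD, n = 3), and the groups overlapped. The log2 fold change was -0.11 in the mean of both hairpins (interval -0.70 to 0.48, adjusted p = 0.79), -0.40 with hairpin 1 (adjusted p = 0.38) and 0.18 with hairpin 2 (adjusted p = 0.72). Between the hairpins it was -0.58 (adjusted p = 0.21). With hairpin 1, where HLA-B and HLA-C fell most, the interval of NLRC5 ran from -1.11 to 0.31. It holds falls as large as theirs (-1.09 and -0.82), so it does not exclude a fall of that size.

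Around these genes, 9 lists of the class I pathway held 59 genes, of which 43 were tested and 10 were at 0 in all 9 libraries. In the mean of both hairpins, 5 rose, 19 fell and 19 did not pass, or 24 of 43 called beside the 45.5% of all genes. Their median log2 fold change was -0.08, beside 0.00 over all genes. With hairpin 1, 8 of 43 rose and 17 fell, beside 23.9% and 23.4% of all genes. With hairpin 2, 2 rose and 14 fell, beside 17.2% and 18.5% of all genes, so that the number called in either direction was close to the background of 35.7%. Between the hairpins 8 were higher with hairpin 1 and 9 lower, beside 15.6% and 13.6% of all genes. The calls of 16 of the 24 genes held under every alternative tried for them, and the other 8 (ERAP1, PSMB6, FCGRT, ATF1, NFYB, RELB, SUSD6 and WWP2) were lost under at least 1. The lists were written with earlier results of these data known, so their counts are a description. Beside the counts of each list below, in the mean of both hairpins, 22.3% of all genes were higher and 23.2% lower.

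CALR and PDIA3, abundant chaperones of peptide loading, fell with CHD9 knockdown. Of 5 tested genes of peptide loading and trimming, none rose, 3 fell and 2 did not pass (median -0.25). CALR, the lectin chaperone of the loading complex, stood at 2401 ± 14.6 CPM in the controls and fell to 1685 ± 11.7 (hairpin 1) and 1925 ± 67.4 (hairpin 2, SD, n = 3), with a log2 fold change of -0.41 in the mean of both (adjusted p = 2.2e-23). PDIA3, the thiol oxidoreductase of the same complex, fell by 0.25 on the log2 scale, from 648 ± 15.7 CPM to 514 ± 8.32 and 575 ± 22.3 (adjusted p = 2.9e-13). The trimming peptidase ERAP1 fell by 0.27 (adjusted p = 0.00080), and passed no longer with the GC content and length correction (-0.14, adjusted p = 0.085). The chaperone CANX (-0.03) and the tapasin-related peptide editor TAPBPL (-0.10) did not pass, although TAPBPL did with that correction (-0.19, adjusted p = 0.014). ERAP2 had 64 counts in all and was not tested.

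The immunoproteasome list rested on 1 gene. PSMB8 and PSMB9, which lie in the chromosome 6 stretch, and the activator genes PSME1 and PSME2 were at 0 in all 9 libraries. PSME1, PSME2 and IRF9 are neighbours on chromosome 14, where 5 of 5 protein-coding genes over 30.4 kb were at 0, so these zeros are not read as a lack of expression either. PSMB10, the third inducible catalytic subunit, had 38, 40 and 41 counts in the controls, 12, 18 and 16 with hairpin 1 and 23, 33 and 26 with hairpin 2. The groups did not overlap, at 1.78 ± 0.216, 0.664 ± 0.118 and 1.05 ± 0.160 CPM (SD, n = 3), and the log2 fold change in the mean of both hairpins was -1.08 (SE 0.24, adjusted p = 0.00019). Over all genes tested, 53.9% did not overlap between hairpin 1 and shGFP, 44.1% between hairpin 2 and shGFP and 39.6% between the hairpins. Between the hairpins PSMB10 differed by -0.65, which did not pass (adjusted p = 0.12). Of the constitutive catalytic subunits, PSMB5 rose from 114 ± 1.61 CPM to 182 ± 4.01 and 174 ± 1.38 (0.64, adjusted p = 8.0e-24). PSMB7 fell by 0.12 (adjusted p = 0.00060) and PSMB6 by 0.07 (adjusted p = 0.027). With hairpin 2 alone PSMB6 did not pass (-0.06, adjusted p = 0.15). Its call in the mean was lost without shGFP replicate 1 (-0.07, adjusted p = 0.089) or shGFP replicate 2 (-0.05, adjusted p = 0.20). It was also lost without hairpin 1 replicate 1 (-0.07, adjusted p = 0.065) or hairpin 2 replicate 2 (-0.06, adjusted p = 0.078).

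Among 10 other class I-like heavy chains and ligands, 7 were tested. In the mean of both hairpins 1 rose, 3 fell and 3 did not pass (median -0.26). With hairpin 2 alone, 1 rose, 1 fell and 5 did not pass. MR1, which presents vitamin B metabolites to mucosal-associated invariant T cells with B2M as its light chain, had the largest fall of those named here. It measured 19.6, 21.1 and 19.2 CPM in the controls, 8.33, 7.34 and 7.57 with hairpin 1 and 9.52, 8.42 and 8.49 with hairpin 2, so that all 6 knockdown libraries lay far below the controls. Its log2 fold change was -1.28 in the mean of both hairpins (SE 0.07, adjusted p = 3.8e-19), and the hairpins differed by -0.19 (adjusted p = 0.15). ULBP2, a ligand of the activating receptor NKG2D, fell by 0.64 in the mean of both hairpins (adjusted p = 0.0016). It went from 3.04 ± 0.512 CPM to 1.57 ± 0.137 and 2.41 ± 0.0925 (SD, n = 3). ULBP2 passed with hairpin 1 (-0.95, adjusted p = 0.00014) but not with hairpin 2 (-0.32, adjusted p = 0.19). The hairpins differed by -0.63 (adjusted p = 0.018). FCGRT, the heavy chain of the neonatal Fc receptor, rose by 0.19 (adjusted p = 0.012), and did not pass with hairpin 2 alone (0.12, adjusted p = 0.22). Its call in the mean was lost without shGFP replicate 2 (0.15, adjusted p = 0.090) and with the GC content and length correction (0.03, adjusted p = 0.73). MICA (-0.26), ULBP1 (0.26) and ULBP3 (-0.14) did not pass in the mean of both hairpins, and HLA-G and MICB were at 0. HLA-G, MICB and MICA lie in the chromosome 6 stretch, so their zeros or low counts are not read as a lack of expression. ULBP1, another NKG2D ligand, was at 1.67 ± 0.0820 CPM in the controls, 1.61 ± 0.0613 with hairpin 1 and 2.48 ± 0.232 with hairpin 2. It passed with hairpin 2 (0.57, adjusted p = 0.026) and between the hairpins (-0.63, adjusted p = 0.017). MICA, a stress-induced ligand of the same receptor, was at 0.946 ± 0.184, 1.05 ± 0.0432 and 0.550 ± 0.247 CPM and passed between the hairpins alone (0.87, adjusted p = 0.049).

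Among the regulators of class I transcription, 1 of 8 enhanceosome subunits rose, 3 fell and 4 did not pass in the mean of both hairpins (median -0.05). With hairpin 1, 3 rose and 3 fell, and with hairpin 2 none rose and 2 fell. RFX5, the DNA-binding RFX subunit, rose by 0.10 (adjusted p = 0.0073) from 75.4 ± 1.07 CPM to 82.6 ± 2.50 and 79.4 ± 1.04. Its rise did not pass with hairpin 2 alone. CREB1, which binds the cyclic AMP element of the module, fell by 0.34 (adjusted p = 2.2e-07) from 38.9 ± 2.10 CPM to 28.3 ± 1.30 and 33.1 ± 2.63. The related factor ATF1 was 33.6 ± 0.297 CPM in shGFP, 26.1 ± 0.932 with hairpin 1 and 34.1 ± 1.39 with hairpin 2, and differed between the hairpins by -0.39 (adjusted p = 4.0e-07). ATF1 (-0.17, adjusted p = 0.0032) and NFYB (-0.12, adjusted p = 0.015) fell in the mean of both hairpins, and with the GC content and length correction these values were 0.000462 and 0.04 and did not pass. The call of NFYB was also lost without shGFP replicate 3 (-0.11, adjusted p = 0.062) or hairpin 1 replicate 1 (-0.10, adjusted p = 0.055).

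Of 9 tested interferon signal factors, 1 rose, 2 fell and 6 did not pass in the mean of both hairpins (median -0.07). With hairpin 1, 2 rose and 2 fell, and with hairpin 2 none rose and 2 fell. STAT2, a transducer of type I interferon signals, measured 35.3, 34.7 and 37.4 CPM in the controls, 27.6, 23.5 and 26.1 with hairpin 1 and 25.9, 23.6 and 25.7 with hairpin 2. It fell by 0.50 on the log2 scale (adjusted p = 7.1e-11), and all 6 knockdown libraries were below the 3 controls. Unlike HLA-B and HLA-C, it did not differ between the hairpins past the threshold (0.04, adjusted p = 0.67). The receptor chain IFNGR1 rose by 0.28 (adjusted p = 0.0017), from 12.2 ± 0.419 CPM to 16.7 ± 1.68 and 13.3 ± 0.807. This rise did not pass with hairpin 2 alone. IRF1, which binds interferon elements of class I promoters, was at 4.68 ± 0.239, 4.83 ± 0.249 and 4.49 ± 0.363 CPM and did not pass (-0.02, adjusted p = 0.93).

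Of 4 NF-kB factors 1 rose, 1 fell and 2 did not pass in the mean of both hairpins (median -0.01). The split with hairpin 1 was the same, and with hairpin 2 alone none of the 4 passed. The inhibitor NFKBIA rose by 0.17 (adjusted p = 5.4e-06), at 95.4 ± 1.79 CPM in shGFP, 117 ± 2.29 with hairpin 1 and 98.3 ± 3.23 with hairpin 2. RELB fell by 0.35 (adjusted p = 0.028), and its call was lost without shGFP replicate 2 (-0.27, adjusted p = 0.16), shGFP replicate 3 (-0.30, adjusted p = 0.13) or hairpin 2 replicate 3 (-0.29, adjusted p = 0.067). With the DESeq2 test the call of RELB was lost as well (-0.35, adjusted p = 0.064). RELA (-0.04) and NFKB1 (0.02) did not pass, although RELA did with the GC content and length correction (-0.13, adjusted p = 0.00050). Of 8 class II genes, only the class II co-activator CIITA was tested, and it did not pass (0.18, adjusted p = 0.69). The class II HLA genes lie in the chromosome 6 stretch, so their zeros or low counts are not read as a lack of expression. CIITA belongs to the same protein family as NLRC5, and its level was 0.647 ± 0.130 CPM in shGFP, 0.763 ± 0.228 with hairpin 1 and 0.671 ± 0.132 with hairpin 2.

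Of 5 genes linked to the turnover of class I molecules at the surface or in the endoplasmic reticulum, none rose, 4 fell and 1 did not pass (median -0.17). That is the mean of both hairpins. With hairpin 1, 2 fell and 3 did not pass (median -0.04), and with hairpin 2, 4 fell and 1 did not pass (median -0.21). MAL2, a transport protein linked to the internalisation of class I complexes, fell by 0.31 (adjusted p = 2.7e-16) from 634 ± 18.3 CPM to 480 ± 14.8 and 543 ± 9.51. SUSD6, TMEM127 and WWP2 form a complex known to send class I molecules to lysosomes. TMEM127 fell by 0.17 (adjusted p = 6.5e-05) from 85.9 ± 3.19 CPM to 78.3 ± 3.95 and 74.4 ± 2.79. SUSD6 (-0.17, adjusted p = 0.026) and WWP2 (-0.08, adjusted p = 0.046) also passed. The call of SUSD6 was lost without shGFP replicate 2 (-0.17, adjusted p = 0.066), shGFP replicate 3 (-0.08, adjusted p = 0.40), hairpin 1 replicate 1 (-0.13, adjusted p = 0.084) or hairpin 2 replicate 2 (-0.15, adjusted p = 0.068). That of WWP2 was lost without any 1 of 8 libraries, with values from -0.09 to -0.05 and adjusted p from 0.052 to 0.30. With the DESeq2 test the calls of SUSD6 (-0.17, adjusted p = 0.070) and WWP2 (-0.08, adjusted p = 0.090) were lost too. WWP2 also did not pass with voom (-0.08, adjusted p = 0.060) or with no filter on low counts (-0.08, adjusted p = 0.078). HM13, a peptidase of the endoplasmic reticulum membrane, did not pass (-0.01, adjusted p = 0.87).

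**Figure D4:**
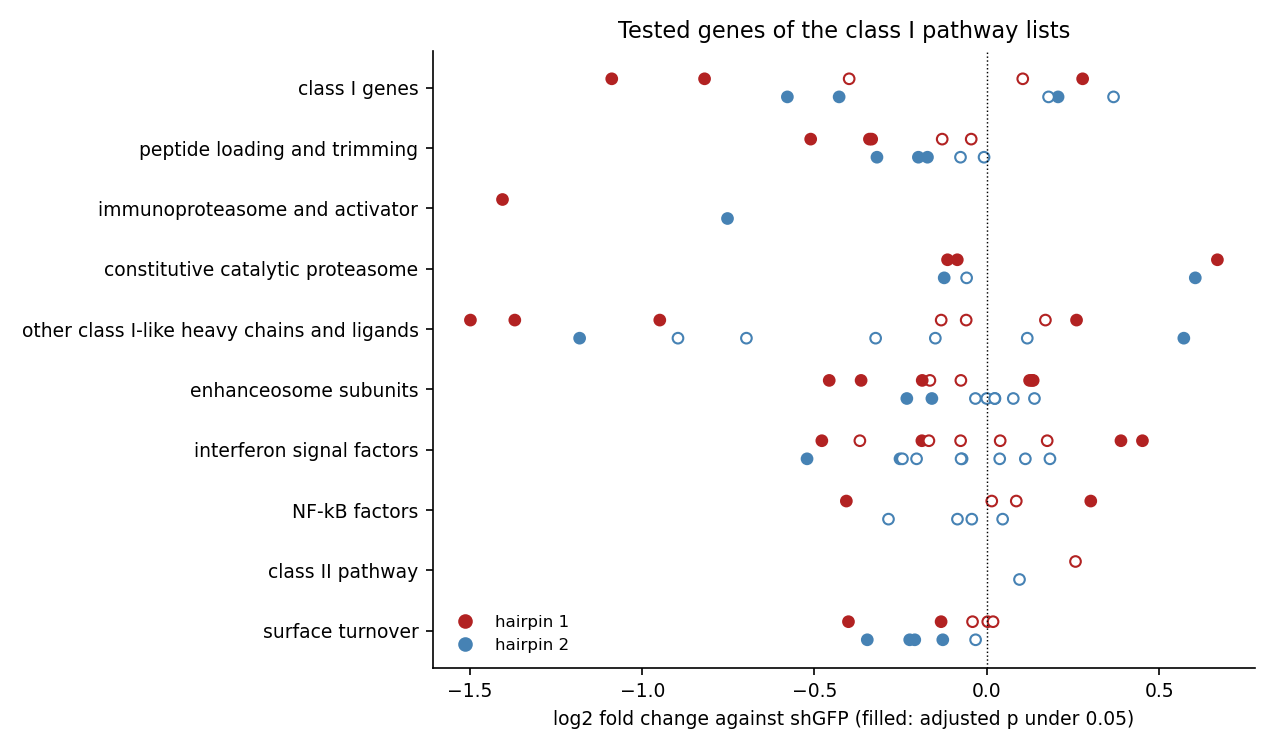
Log2 fold change against shGFP (horizontal axis) of each tested gene in the class I group and in 9 pathway lists, red for hairpin 1 and blue for hairpin 2, filled where the adjusted p was under 0.05. Most filled points lie below 0, and the exceptions above 0 include B2M in the class I group and PSMB5 in the constitutive proteasome list.

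The genes whose pattern over the 9 libraries was most like that of HLA-B, by Pearson's r of log2 CPM among 10496 genes of at least 5 CPM, were GLOD4 (0.986), PCM1 (0.985), PSMC3 (0.982), NEDD4L (0.979) and AMZ2 (0.978). PCM1, for example, measured 121 ± 2.56 CPM in shGFP, 101 ± 1.28 with hairpin 1 and 111 ± 4.06 with hairpin 2 (SD, n = 3), the same order of groups as HLA-B at a smaller amplitude. For B2M they were PKP4 (0.979), SGPL1 (0.977), SPTBN4 (0.977), LYRM4 (0.977) and DCAF16 (0.973). SGPL1 measured 59.5 ± 1.72, 72.4 ± 2.30 and 69.5 ± 2.50 CPM, again in the order of B2M. All points share the 3 groups and their libraries, so these values describe a shared order of groups and carry no p.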

How the data were processed

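RNA was measured by sequencing of polyadenylated RNA in 9 libraries of 22Rv1 cells, prepared with a directional kit per the labels' protocols. Per the submitters' processing notes, Trim Galore, STAR, DESeq2 and the build hg38 were used. The sources used here give no versions, read counter, strand setting, annotation release or treatment of reads with several matches. The deposited values are raw counts per gene, not normalised and not pooled. Overlapping and antisense genes therefore cannot be told apart.

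Samples were grouped by title. Of 67071 identifiers, 60691 had a symbol, and no row lacked a gene. Low counts were removed with filterByExpr in edgeR 4.0.16 (minimum count 10, R 4.3.3), libraries were scaled by TMM, and genes were tested by the quasi-likelihood test with 1 mean for each of the 3 groups over all 9 libraries, in 4 contrasts, with Benjamini-Hochberg adjustment over 16855 genes and a threshold of 0.05. The script was tested on simulated data. CPM use scaled library totals. Intervals are at 95%, cover the spread between these libraries, and depend on 3 libraries a group. Coordinates and transcripts are from GENCODE 29, and promoters from RefSeq. No 2 libraries of a group agreed within sampling noise.

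The members and lists were chosen with earlier results of these data known. Named genes are the 9 class I genes, CHD9, genes of the described lists (peptide loading and trimming, immunoproteasome, constitutive proteasome, other class I-like genes, enhanceosome, interferon factors, NF-kB factors, class II pathway, surface turnover and cell type markers), and the 5 genes most correlated with each of HLA-B and B2M. CCHCR1, RPS18 and TUBB, in the chromosome 6 stretch, are named outside this rule and were chosen after their values were seen. Some genes of the rule are not reported here. Alternatives were DESeq2 1.42.0 size factors and test, voom with limma 3.58.1, other filters and thresholds, a GC content and length correction, the replicate block, fits on fewer groups, counts summed by symbol, and leaving out each library.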

Additional observations from a re-analysis of the deposited data

Results flagged for a closer look

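The effect against shGFP differed between the hairpins by a direct test (edgeR quasi-likelihood, Benjamini-Hochberg adjustment) for HLA-B, by -0.51 on the log2 scale, hairpin 1 minus hairpin 2, and for HLA-C, by -0.39. All 3 hairpin 1 libraries were below all 3 hairpin 2 libraries for both genes, where 39.6% of all genes tested did not overlap between these groups in either direction. The targeted gene CHD9 differed the same way, by -0.28, but not past the threshold with the GC content and length correction and the replicate block together (-0.18, adjusted p = 0.055). Whether these differences belong together was not tested.

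In rows outside the comparisons, 628 identifiers without a symbol held counts, 0.099% of all counts in the table. They have no name in the sources used here and were not assigned to any class I gene.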

How the results depend on the processing

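The calls of HLA-B, HLA-C and B2M against shGFP, in the mean of both hairpins and with each hairpin, kept their direction and their side of the threshold under every alternative run, and the number of class I genes called stayed at 3 in each of these contrasts. In the mean of both hairpins HLA-B ranged from -0.94 to -0.72, HLA-C from -0.77 to -0.59 and B2M from 0.20 to 0.37, the last with the GC content and length correction. TAP2 and NLRC5 did not pass under any alternative that tested them, with leave-one-out ranges of -0.14 to 0.58 and -0.28 to 0.04.

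Same-numbered replicates did not deviate together (correlations of deviations -0.07 to 0.06, against -0.07 to 0.09 between different numbers), so the numbers do not pair the samples. With the replicate block alone HLA-B was -0.83 in the mean of both hairpins, and 7669 genes were called against 7675. With the GC content and length correction and the block together, the difference of CHD9 between the hairpins was -0.18 and no longer passed (adjusted p = 0.055), and NFYB reversed to 0.0430. With that correction alone, ATF1 (0.000462) and NFYB (0.0424) reversed in the mean of both hairpins and did not pass. The cause was not tested. Leaving out 1 library moved CHD9 with hairpin 2 between -0.29 and -0.20, losing its call without shGFP replicate 3. The number of pathway genes called ranged from 18 to 24 in the mean of both hairpins. A fit on the compared groups alone is the same fit for that contrast and was not run. TAP2 and NLRC5 rest on 3 to 34 counts a library, which limits what could be detected.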
